A study of Mus musculus with 2 samples.

Results

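The actin cytoskeleton and contractile genes described here are 39 genes of actins, tropomyosins, nonmuscle and smooth muscle myosin chains, calponin family proteins, actin cross-linkers, focal adhesion and LIM proteins, membrane linkers, monomer-binding, severing and capping proteins, the transcription factor SRF and the nuclear lamina protein lamin A/C. They were listed by symbol, with earlier results of these data known, and each probe whose accession maps to a listed symbol was taken. All 39 were tested, out of 24022 genes tested in all. Expression was measured in AIMP3f/f;cre-ERT2 mESCs, whose AIMP3 alleles are flanked by loxP sites and whose Cre recombinase needs tamoxifen. AIMP3, a scaffold subunit of the multi-aminoacyl-tRNA synthetase complex, is encoded by *Eef1e1*. The 2 AIMP3-depleted replicates were given 4-hydroxytamoxifen (4-OHT) at 2 μM over 4 days, and controls of the same genotype were given ethanol, both in medium with LIF. RNA of each AIMP3-depleted replicate was labeled with Cy5 and hybridized to 1 array, against Cy3-labeled RNA of the control cells, which was pooled into 1 sample and used on both arrays.

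The mESC clones came from blastocysts. According to the labels they were generally cultured on layers of mouse embryonic fibroblasts (MEFs), and the study's methods name MEF-conditioned medium for drug treatment. No control array, no dye swap and no control cells with Cre and 4-OHT but without loxP sites were used here, so that loss of AIMP3, 4-OHT, Cre activity and dye cannot be told apart. Both arrays lay on 1 slide. The labels do not say that the replicates were separate cultures, and p-values therefore measure only the spread between these 2 samples, which may be technical. Values are log2 ratios of AIMP3-depleted over control RNA, taken in that direction from the dyes in the labels, although the methods describe the averaged ratio as control over test. In this direction *Eef1e1* had -0.90 on both arrays (mean -0.90 ± 0.0067, SD, n = 2, limma adjusted p = 4.77e-05). A gene is called raised or lowered where its mean passed 1.5-fold (0.58 on the log2 scale) in that direction and the unadjusted p of limma was under 0.05. Adjusted p-values come from limma with the Benjamini-Hochberg method across the 24022 genes.

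Actin monomers assemble into filaments that tropomyosins coat, that nonmuscle myosin II pulls against each other, and that α-actinins and filamins tie into bundles and networks. At focal adhesions, talin, vinculin and zyxin join the filaments to integrins, and ezrin, radixin and moesin join them to the membrane. The transcription factor SRF binds a motif known as the CArG box in many genes of this machinery. Its cofactors MRTF-A and MRTF-B are held by actin monomers, which ties transcription of these genes to the state of actin itself. Embryonic stem cells are round, soft and tightly packed, and spreading cells such as fibroblasts and endoderm build more stress fibers and adhesions.

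Of the 39 members, 20 were raised and 0 were lowered. Raised genes made up 51.3% of the members, beside 5.53% of all tested genes (1328 of 24022), and lowered genes made up 0.791% of all tested genes (190). Among the 10636 genes as bright as the dimmest member or brighter, 5.16% (549) were raised. The median log2 ratio of the members was 0.63 on each array, beside 0.016 over all tested genes. On both arrays, 36 members were above 0 and 2 were below 0, namely *Actn4* and *Lima1*, and *Rdx* had opposite signs. Without the fold threshold, limma gave an adjusted p under 0.05 for 32 members (82.1%), beside 54.3% of all tested genes, and an unadjusted p under 0.05 for 1 member below 0, *Lima1*. The mean ratios ran from -0.48 to 1.49, and the SD between the arrays had a median of 0.042 over the members and 0.048 over all tested genes. Replicate 2 had the higher ratio for 31 of the 39 members, whereas it was higher for 11959 of the 24022 tested genes. Cell number and RNA per cell cannot be told apart in such bulk RNA.

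**Figure D1:**
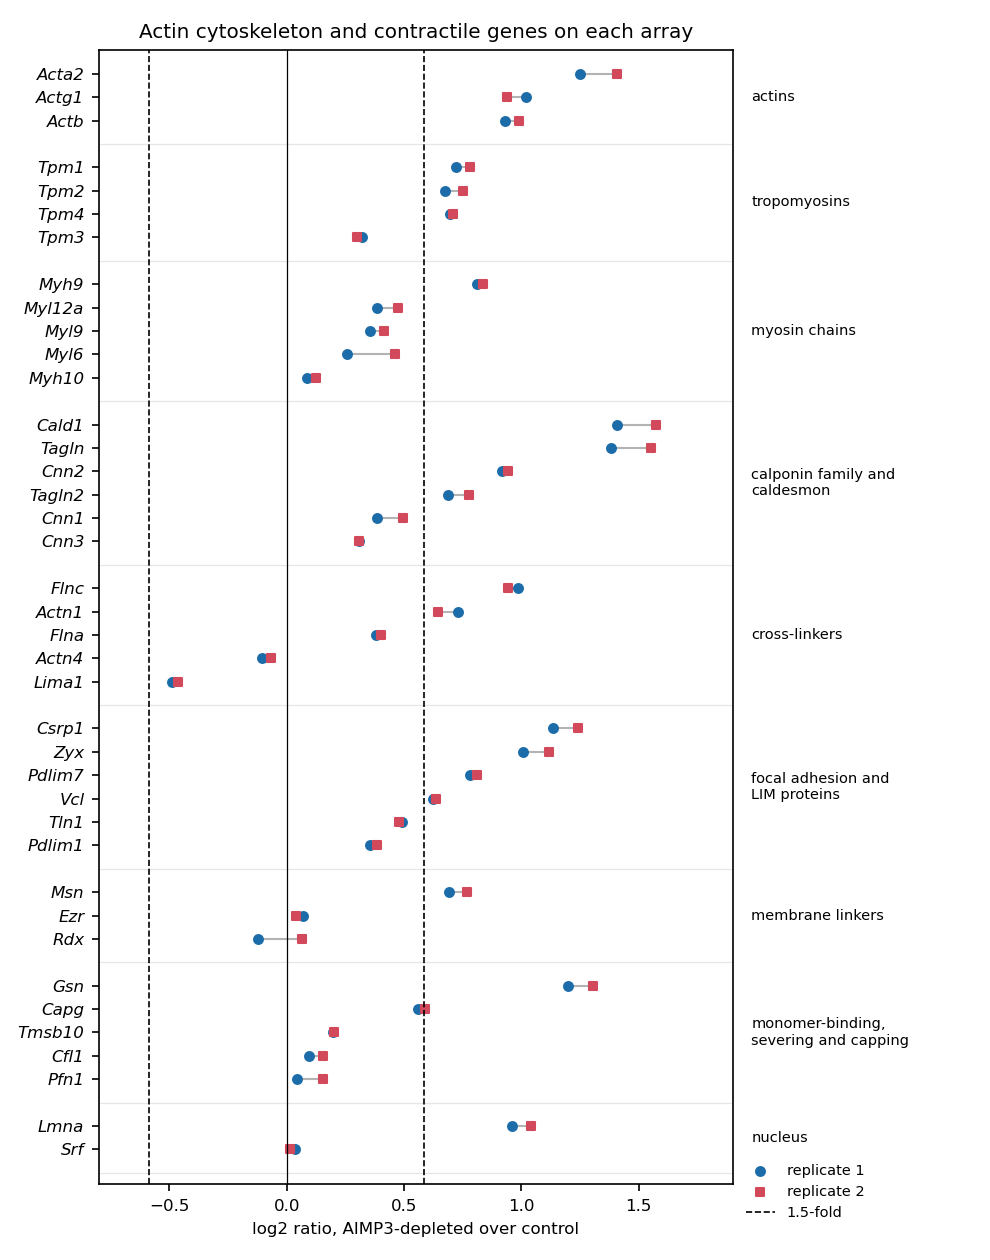
AIMP3-depleted over control RNA, as log2 ratio (x axis), is plotted for each of the 39 members on the array of replicate 1 (circles) and replicate 2 (squares), grouped by role, with dashed lines at 1.5-fold in either direction. In each role group at least 1 member lies right of the 1.5-fold line on both arrays, and *Lima1* (-0.49 and -0.46) lies farthest left.

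**Figure D2:**
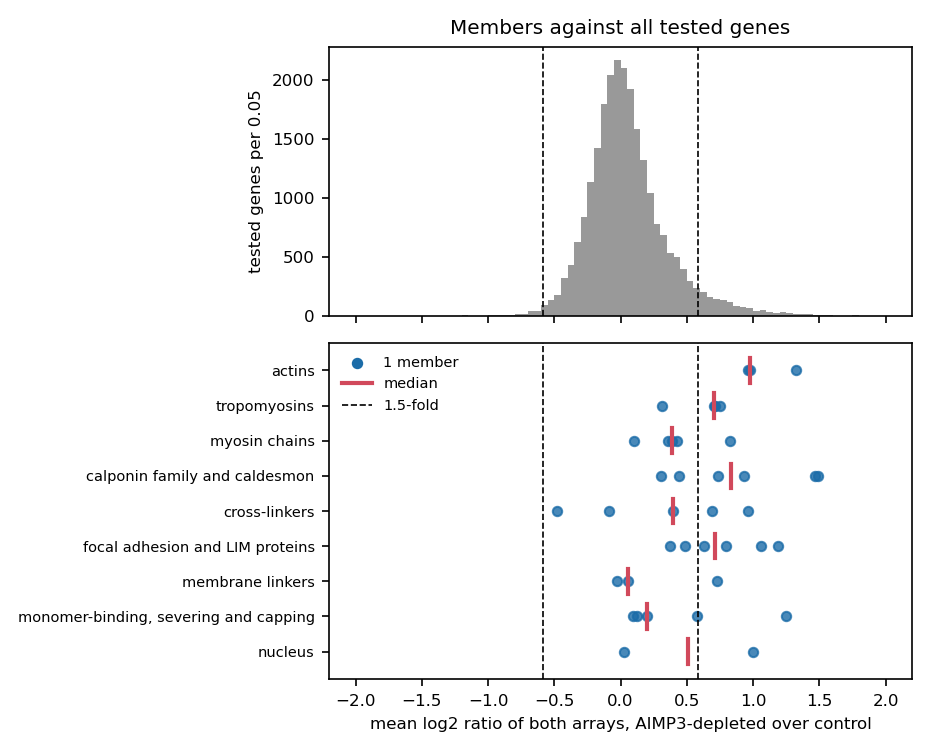
The upper panel counts all 24022 tested genes by mean log2 ratio of both arrays in steps of 0.05, and the lower panel shows each member as a point by role group, with the group median as a bar and dashed lines at 1.5-fold. The bulk of all genes lies around 0.016, while the medians of the role groups run from 0.055 for the membrane linkers to 0.98 for the actins.

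The CArG box is CC, then 6 bases that are each A or T, then GG, and it reads as a CArG box on both strands. It was searched because many members are known SRF targets, in the RefSeq promoter windows of build GRCm38.p6, which run from 250 bases before to 50 bases after a gene's start. Of the 39 members, 37 had a window, and *Actb* and *Tagln* had none. A box was found for 7 members (18.9% of those with a window), beside 488 of all 27025 genes (1.81%) and 535 of all 32851 windows (1.63%). Stretches of up to 60 bases around these boxes are printed 5′ to 3′ on the strand of the gene, with the box in capitals, at chr11:120348551-120348610 (minus strand) for *Actg1*, chr10:79988519-79988578 (plus) for *Cnn2*, chr14:20929148-20929205 (plus) for *Vcl*, chr2:156775278-156775337 (plus) for *Myl9*, chr10:128493025-128493084 (minus) for *Myl6*, chr15:99820162-99820221 (minus) for *Lima1* and chr17:46556210-46556269 (minus) for *Srf*.
Actg1: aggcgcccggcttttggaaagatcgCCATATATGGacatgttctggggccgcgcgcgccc
Cnn2: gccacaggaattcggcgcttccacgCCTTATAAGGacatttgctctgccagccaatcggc
Vcl: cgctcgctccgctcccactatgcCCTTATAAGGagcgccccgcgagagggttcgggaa
Myl9: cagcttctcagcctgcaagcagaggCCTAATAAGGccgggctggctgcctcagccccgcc
Myl6: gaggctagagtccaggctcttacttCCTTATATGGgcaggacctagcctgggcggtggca
Lima1: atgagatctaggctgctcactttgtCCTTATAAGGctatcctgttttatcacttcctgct
Srf: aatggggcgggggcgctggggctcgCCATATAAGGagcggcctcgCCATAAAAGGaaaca

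The box began 90 bases before the start of *Actg1*, 56 before that of *Cnn2*, 227 before that of *Vcl*, 161 before that of *Myl9*, 50 before that of *Myl6* and 47 before that of *Lima1*. *Srf* had 2 boxes in its window, 82 and 62 bases before its start. *Cnn2*, *Vcl* and *Lima1* carried the same letters in their boxes and had mean log2 ratios of 0.93, 0.63 and -0.48. Of the 7 members with a box, 3 were raised (*Actg1*, *Cnn2* and *Vcl*), as were 15 of the 30 members without one. Among tested genes that are no members, 197 had a box and 14 of them (7.11%) were raised, beside 6.38% of all tested genes whose windows held no box. A match is a description of these letters, and a member without one is described only for this window.

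All 3 actins were raised. *Acta2*, which encodes the α-actin of smooth muscle and of contractile fibroblasts, had 1.25 and 1.41 on the arrays of replicates 1 and 2 (mean 1.33 ± 0.11, 2.51-fold, adjusted p = 3.41e-05). Its probe was spotted 10 times on each array, and the spots ran from 1.21 to 1.29 for replicate 1 and from 1.36 to 1.46 for replicate 2, so that the arrays did not overlap. *Actb*, the β-actin of every nonmuscle cell and a usual loading reference, had 0.93 and 0.99 (mean 0.96 ± 0.042, adjusted p = 4.61e-05). Its mean was 0.71 when the signals processed by the scanner software were used and 1.51 when each array was centred on its median in place of loess. *Actg1*, the cytoplasmic γ-actin, had 1.02 and 0.94 (mean 0.98 ± 0.055, adjusted p = 4.62e-05). *Acta2* exceeded *Actb* by 0.37 on average, a difference that was 0.62 with the processed signals and 0.091 with median centring and was not tested.

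The 5 probes of *Actg1* differed. They carried 1 accession, and their mean ratios were 0.98, 0.59, 0.26, 0.14 and 0.12 in order of falling intensity. The brightest probe stood for the gene, and the mean over the 5 probes was 0.42, under 1.5-fold. *Actg1* was also the member whose control signal, from the same RNA pool, differed most between the arrays, by 0.36 on the log2 scale (SD over the members 0.071). The actin proteins are near-identical, and whether probes of their genes share hybridization was not tested because probe sequences were not used here.

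**Figure D3:**
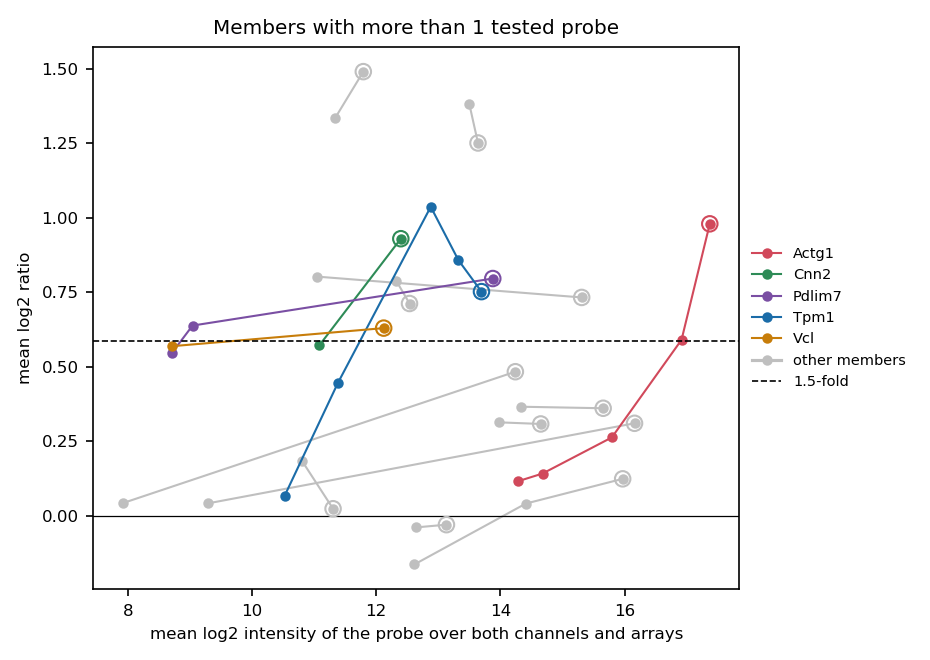
Each point is 1 tested probe of the 16 members with more than 1 tested probe, plotted by its mean log2 intensity (x axis) and mean log2 ratio (y axis), with lines that join the probes of a gene and a ring around the probe that stands for it. Colors mark the 5 members with probes on both sides of the dashed 1.5-fold line, and the probes of *Actg1* run from 0.12 at the dimmest to 0.98 at the brightest.

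Of the 64 probes of the members, 63 were tested. Among the 16 members with more than 1 tested probe, all tested probes lay on the same side of 1.5-fold for 11 and on both sides for *Actg1*, *Tpm1*, *Cnn2*, *Vcl* and *Pdlim7*. For some members, such as *Actg1*, the spread over probes was larger than the spread between arrays.

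Of the 4 tropomyosins, which lie along the filament and govern the access of myosin and cofilin, 3 were raised and the group median was 0.71. *Tpm1* had 0.72 and 0.78 (mean 0.75 ± 0.041, adjusted p = 7.85e-05). Its 5 probes had mean ratios of 0.75, 0.86, 1.04, 0.45 and 0.068, the brightest first and the dimmest last. The 0.75 and 0.86 belong to probes of the same RefSeq transcript, and the others to a different one each. *Tpm2* had 0.67 and 0.75 (mean 0.71 ± 0.055), and its other probe had 0.79. *Tpm4* had 0.70 and 0.71 (mean 0.70 ± 0.0092). *Tpm3* had 0.32 and 0.30 (mean 0.31 ± 0.013, adjusted p = 0.00163), under 1.5-fold on both arrays, and its second tested probe had 0.042. The difference from *Tpm3* was 0.44 for *Tpm1*, 0.40 for *Tpm2* and 0.39 for *Tpm4*, and was not tested. With median centring *Tpm3* itself passed the threshold at 0.76, and the differences were 0.27, 0.19 and 0.26.

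Among the 5 myosin chains only the heavy chain *Myh9* was raised, under loess with the brightest probe, whereas median centring also brought *Myl6*, *Myl9* and *Myl12a* past the threshold. *Myh9*, the heavy chain of nonmuscle myosin IIA, had 0.81 and 0.84 (mean 0.83 ± 0.018, adjusted p = 5.62e-05). *Myh10*, the heavy chain of nonmuscle myosin IIB, had 0.087 and 0.12 (mean 0.10 ± 0.025, adjusted p = 0.0884). *Myh9* lay above *Myh10* by 0.73 and 0.72 (mean 0.72 ± 0.0075), a difference that was not tested. The regulatory light chains *Myl12a* (0.38 and 0.47) and *Myl9* (0.35 and 0.41) had means of 0.43 ± 0.064 and 0.38 ± 0.042, with adjusted p-values of 0.000619 and 0.00079. The essential light chain *Myl6* had 0.26 and 0.46, the widest spread between arrays of the members (mean 0.36 ± 0.14, adjusted p = 0.00309). All 3 light chains were above 0 and under 1.5-fold on both arrays.

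Caldesmon and 3 proteins of the calponin family were raised, 4 of the 6 in this group, which had a median of 0.83. *Cald1*, encoding caldesmon, which binds filaments and restrains myosin, had 1.41 and 1.58 (mean 1.49 ± 0.12, 2.81-fold, adjusted p = 3.28e-05), the highest mean of the members. Its other probe had 1.33. *Tagln*, encoding transgelin (SM22α), a marker of early smooth muscle and of contractile fibroblasts, had 1.38 and 1.55 (mean 1.47 ± 0.12, 2.76-fold, adjusted p = 3.28e-05). *Tagln2*, its relative in nonmuscle cells, had 0.69 and 0.78 (mean 0.73 ± 0.062) and a mean of 0.80 on its other probe, and *Tagln* lay 0.73 ± 0.059 above it. Both transgelins lay past 1.5-fold on each array.

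The calponins were unequal. *Cnn2*, the calponin of nonmuscle cells, had 0.92 and 0.94 (mean 0.93 ± 0.017, adjusted p = 4.62e-05), and its other probe, at 0.57, lay just under 1.5-fold. *Cnn1*, the calponin of differentiated smooth muscle, had 0.38 and 0.50 (mean 0.44 ± 0.080, adjusted p = 0.000654). *Cnn3*, the acidic calponin, had 0.31 on both arrays (mean 0.31 ± 0.0013, adjusted p = 0.00165) and a mean of 0.31 on its other probe. *Cnn2* lay above *Cnn1* by 0.49 ± 0.063 and above *Cnn3* by 0.62 ± 0.018, and these differences were not tested. They were 0.31 and 0.44 with the mean of all probes. With median centring *Cnn1* (0.66) and *Cnn3* (0.65) passed the threshold as well.

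Of the 5 cross-linkers, 2 were raised. *Flnc*, encoding the filamin of muscle, had 0.99 and 0.94 (mean 0.965 ± 0.029, adjusted p = 4.5e-05). *Flna*, the widely expressed filamin that ties filaments into networks, had 0.38 and 0.40 (mean 0.39 ± 0.016, adjusted p = 0.000659), and *Flnc* lay 0.57 ± 0.045 above it. *Flna* passed the threshold with median centring (0.84), where the difference was 0.38. *Actn1*, the α-actinin of stress fibers and adhesions, had 0.73 and 0.65 (mean 0.69 ± 0.058, adjusted p = 0.000114). *Actn4*, the other nonmuscle α-actinin, had -0.11 and -0.066 (mean -0.086 ± 0.028, adjusted p = 0.147), a sign that turned with median centring (0.28). *Actn1* lay above *Actn4* by 0.84 and 0.71 (mean 0.77 ± 0.087), which was not tested.

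*Lima1*, encoding EPLIN, which bundles filaments and slows their turnover, was the only member with a negative ratio past p under 0.05 in limma. It had -0.49 and -0.46 (mean -0.48 ± 0.018, 0.719-fold, adjusted p = 0.00033) and did not pass 1.5-fold. It was also the dimmest member, with a probe that was detected in each channel on each array. Its box carries the same letters as those of *Cnn2* and *Vcl*, printed above.

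Of the 6 focal adhesion and LIM proteins, 4 were raised and all 6 were above 0 on both arrays, with a median of 0.71. *Csrp1*, encoding a LIM protein that binds zyxin and α-actinin, had 1.14 and 1.24 (mean 1.19 ± 0.073, 2.28-fold, adjusted p = 3.41e-05). *Zyx*, encoding zyxin, which gathers on strained stress fibers, had 1.00 and 1.12 (mean 1.06 ± 0.079, adjusted p = 4.51e-05). *Pdlim7*, an adaptor with PDZ and LIM domains, had 0.78 and 0.81 (mean 0.80 ± 0.021, adjusted p = 6.26e-05), and its dimmer probes had 0.64 and 0.55. *Pdlim1*, of the same family, had 0.35 and 0.38 (mean 0.37 ± 0.022, adjusted p = 0.000835), 0.43 below *Pdlim7* on both arrays. With median centring *Pdlim1* passed the threshold at 0.68.

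Vinculin and talin lay near the threshold. *Vcl* had 0.63 on both arrays (mean 0.63 ± 0.0062, adjusted p = 0.000123), the raised member closest to 1.5-fold, and its other probe had 0.57. *Tln1*, encoding the talin that binds integrin tails and vinculin, had 0.49 and 0.48 (mean 0.48 ± 0.0086, adjusted p = 0.000307), and a dimmer probe had 0.042. With median centring *Tln1* passed the threshold at 0.80. The nearest member under the threshold was *Capg* at 0.57, and the threshold thus separates members whose means differ by little.

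Of the 3 membrane linkers, which hold filaments to the plasma membrane, 1 was raised. *Msn*, encoding moesin, had 0.69 and 0.77 (mean 0.73 ± 0.053, adjusted p = 9.08e-05) and passed the call. *Ezr*, encoding ezrin, had 0.068 and 0.041 (mean 0.055 ± 0.019, adjusted p = 0.331), and its mean was -0.0061 with the processed signals. *Rdx*, encoding radixin, had -0.12 and 0.064 (mean -0.030 ± 0.13, adjusted p = 0.685), with a mean of 0.22 under median centring, and its other probe had -0.039. *Msn* lay above *Ezr* by 0.68 ± 0.072 and above *Rdx* by 0.76 ± 0.080, and these differences were not tested.

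Of the 5 proteins that bind monomers, sever or cap filaments, *Gsn* alone was raised under loess, while median centring also brought *Capg* and *Tmsb10* past the threshold. *Gsn*, encoding gelsolin, which severs and caps filaments when calcium rises, had 1.20 and 1.30 (mean 1.25 ± 0.075, 2.38-fold, adjusted p = 3.36e-05), and its other probe had 1.38. *Capg*, a relative of gelsolin that caps without severing, had 0.56 and 0.59 (mean 0.57 ± 0.024, adjusted p = 0.000172), just under 1.5-fold over both arrays and past it on replicate 2 alone. With the processed signals it had 0.587, and 0.627 with the authors' deposited ratios, both past the threshold. *Gsn* lay 0.68 ± 0.052 above *Capg*.

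*Tmsb10*, *Cfl1* and *Pfn1* did not pass 1.5-fold under loess, and median centring gave means of 0.62, 0.56 and 0.32 for them. *Tmsb10*, encoding thymosin β-10, which sequesters monomers, had 0.20 on both arrays (mean 0.20 ± 0.0024, adjusted p = 0.00926). *Cfl1*, encoding cofilin, which severs and disassembles filaments, had 0.094 and 0.15 (mean 0.12 ± 0.043, adjusted p = 0.0579), and its dimmer probes had 0.041 and -0.16. *Pfn1*, encoding profilin, which feeds monomers to growing ends, had 0.042 and 0.15 (mean 0.097 ± 0.079, adjusted p = 0.138). These 3 members lay below the members' median on both arrays.

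Of the 2 nuclear members, *Lmna*, encoding lamin A/C of the nuclear lamina, which is low in embryonic stem cells and linked to the cytoskeleton, had 0.96 and 1.04 (mean 1.00 ± 0.056, adjusted p = 4.56e-05) and was raised. *Srf*, encoding the transcription factor, had 0.034 and 0.013 (mean 0.024 ± 0.015, adjusted p = 0.672), a sign that turned with the processed signals (-0.045) and with the log2 ratios that the authors deposited (-0.0052). Its other probe had 0.18.

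Of the 20 raised members, 19 stayed past the threshold under all 8 settings of background correction, signal, dye normalization, filter on dim probes and probe rule. The exception was *Actg1* with the mean of its probes (0.42). With a 2-fold threshold 6 members remained, namely *Cald1*, *Tagln*, *Acta2*, *Gsn*, *Csrp1* and *Zyx*. The count of raised members was 20 with a one-sample form, chosen here, of the test between groups that the methods name, and 0 after Benjamini-Hochberg adjustment of it, where 0 of all genes passed.

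**Figure D4:**
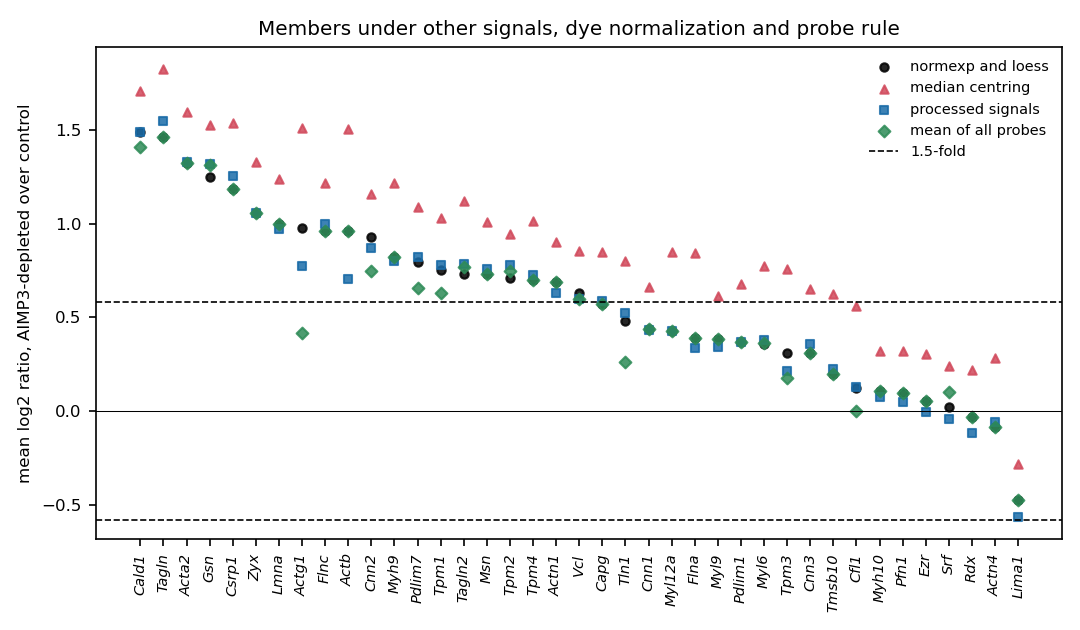
The mean log2 ratio (y axis) of each member (x axis, ordered by its value under normexp and loess) is shown for normexp and loess, median centring, processed signals and the mean over a gene's probes, with dashed lines at 1.5-fold. Median centring lies above the other settings for every member, with 31 members past 1.5-fold in place of 20, and the mean of all probes moves *Actg1* below the line to 0.42.

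Median centring shifted all genes as well as the members. It moved the median of all tested genes from 0.016 to 0.18 and that of the members from 0.63 to 0.86. Among the role groups the median moved from 0.055 to 0.31 for the membrane linkers, from 0.20 to 0.62 for the monomer-binding, severing and capping proteins, from 0.39 to 0.84 for the cross-linkers, from 0.38 to 0.78 for the myosin chains and from 0.98 to 1.52 for the actins. The split of called genes moved too, from 1328 raised and 190 lowered (87.5% raised) to 2827 and 64 with median centring (97.8%), 1942 and 771 with the processed signals (71.6%), and 2130 and 617 with the authors' deposited table (77.5%), while 0 members were lowered under any of the settings run.

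Beyond the members, 10 further lists held 144 genes, of which 133 were tested. They cover the actin machinery, SRF cofactors and further targets of MRTF and SRF. Of the tested genes, 22 were raised (22 of 133, beside 5.53% of all genes) and 2 were lowered. Their median was 0.23, below that of the members. The 22 include 3 of 5 tested SRF cofactors and 5 of 6 tested further targets of MRTF and SRF. The factors that start new filaments held 0 called genes among 9 of the Arp2/3 complex, 11 formins and 11 of the WASP and WAVE group, with medians of 0.21, 0.092 and 0.10. At an adjusted p under 0.05 in limma without the fold threshold there were 5, 6 and 6, near the 54.3% of all tested genes.

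Of 5 tested SRF cofactors, 3 were raised. *Elk3* had 0.84 and 0.93, with means of 1.03 and 0.17 on its dimmer probes, *Mrtfb*, encoding MRTF-B, had 0.63 and 0.62 on its brighter probe and a mean of 0.13 on the other, and *Mrtfa*, encoding MRTF-A and named after its values were seen, had 0.25 and 0.29 and passed no call. *Elk1* had 0.96 and 0.72 on its bright probe and -0.025 and -0.14 on a dim one. The mean log2 intensity of these probes was 17.7 and 7.04, beside 17.5 for *Actb*, the brightest member. Whether the bright probe reports *Elk1* was not tested, and its call is given as uncertain. With the mean of all probes 1 of the 5 was raised.

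Of 6 tested further targets of MRTF and SRF, 5 were raised, with a median of 0.91. *Fhl2*, a LIM protein partner of SRF, had 1.20 and 1.25, and *Thbs1*, the matrix protein thrombospondin-1, had 1.13 and 1.27. *Ccn1* had 0.98 and 0.96 and *Ccn2* had 0.82 and 0.87, both secreted matricellular proteins that YAP also controls. 

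Other regulators of filaments and adhesions were mixed. Of 21 tested monomer-binding, severing and capping genes outside the members, 4 were raised, among them *Wdr1* (1.07 and 1.11), a cofactor of cofilin, and *Tmsb4x* (0.86 and 0.95), the thymosin β-4 gene, which lay above the ratio of *Tmsb10*. *Cfl2*, the muscle cofilin, had 0.71 and 0.70 on its brighter probe and 0.13 and 0.086 on the other, and *Eps8* had 0.61 and 0.72 on its brighter probe and a mean of 0.32 on the other. With the mean of all probes 2 of the 21 were raised.

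Of 26 further focal adhesion genes, 5 were raised. *Lpp*, a relative of zyxin, had 1.14 and 1.13. *Parva* had 0.93 and 0.97, *Ilk* had 0.83 and 0.86, and *Bcar1*, the scaffold p130Cas, had 0.71 and 0.81. Of 14 other bundlers and cross-linkers, *Lcp1* was raised (0.70 and 0.62) and *Actn3*, the α-actinin of fast muscle, was lowered (-0.53 and -0.66), though not past 1.5-fold on replicate 1 alone nor with median centring. Of 9 other myosin chains, *Myo1e* was raised (0.82 and 0.87).

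Of 25 genes restricted to muscle 21 were tested, 3 were raised (14.3%, beside 5.53% of all tested genes) and 1 was lowered, with a median of 0.17. The raised ones were *Acta1* (1.22 and 1.32) and *Actg2* (1.20 and 1.32), the actins of skeletal and enteric smooth muscle, and *Myh7* (0.88 and 0.86), and *Myh3* was lowered (-0.72 and -0.66). *Acta1* and *Actg2* are near-identical to *Acta2* in coding sequence and lay close to its ratio, and they are given as uncertain for that reason. With the processed signals 7 were raised.

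**Figure D5:**
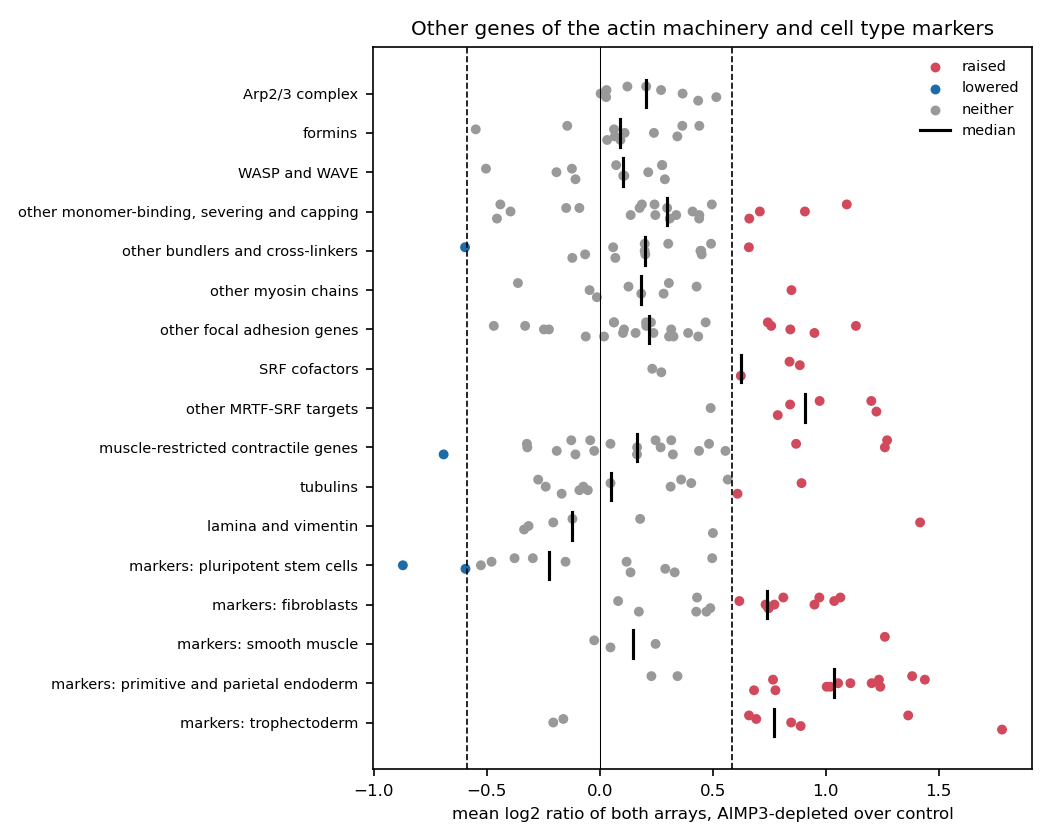
Each point is the mean log2 ratio of both arrays (x axis) of 1 tested gene, colored by call, with bars at the list medians and dashed lines at 1.5-fold. The lists (y axis) are further actin machinery, SRF cofactors and targets, tubulins, lamina and vimentin, and cell type markers. The Arp2/3 complex, formins and WASP and WAVE genes hold no colored point, while 12 of 14 endoderm markers and 10 of 16 fibroblast markers are raised.

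Markers of other cell types were counted beside the members. Of 16 tested fibroblast markers 10 were raised, with a median of 0.74 and a range from 0.082 to 1.06. *Col1a1*, the chain of type I collagen, had 1.05 and 1.08, *Col1a2* had 1.09 and 0.99, *Pdgfra* had 0.99 and 0.95 and *Col3a1* had 0.99 and 0.91, while *Lum* was not well above background in any channel and *Fap* in 1 channel alone. Of 14 tested markers of primitive and parietal endoderm 12 were raised, with a median of 1.04. Among them *Sox17* had 1.42 and 1.45, *Foxa2* had a mean of 1.38, *Sparc* had 1.27 and 1.21 and *Col4a1* had 1.27 and 1.20.

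Of 8 tested trophectoderm markers 6 were raised, with a median of 0.77, led by the keratins *Krt18* (1.76 and 1.80) and *Krt8* (1.35 and 1.38), followed by *Hand1* (0.86 and 0.91) and *Gata3* (0.82 and 0.87). The other two, *Tfap2c* (-0.19 and -0.22) and *Eomes* (-0.11 and -0.21), were below 0 on both arrays, named here after their values were seen. Of 12 markers of pluripotent stem cells 0 were raised and 2 were lowered, *Fgf4* (-0.85 and -0.89) and *Tdgf1* (-0.55 and -0.64), with a median of -0.22 and a range from -0.87 to 0.50. On both arrays 7 were below 0 and 5 above it, namely *Dppa5a* (mean 0.50), *Tfcp2l1* (0.33), *Klf2* (0.29), *Klf4* (0.14) and *Esrrb* (0.12), none past 1.5-fold. The others below 0 were *Sox2* (mean -0.53), *Pou5f1* (-0.48), *Nanog* (-0.38), *Utf1* (-0.30) and *Zfp42* (-0.15), also under 1.5-fold over both arrays. *Pou5f1* passed it on replicate 1 alone (-0.64, beside -0.32 on replicate 2), and a dimmer probe of *Nanog* had a mean of 0.064. Those past no call were named after their values were seen. All 12 passed the background filter, so the labelled cell type had its markers, and *Tdgf1* did not pass 1.5-fold on replicate 1 alone. Of 7 smooth muscle markers 4 were tested, and *Actg2* alone, given above as uncertain, was raised. *Myh11*, the smooth muscle myosin heavy chain, *Lmod1* and *Myocd*, the cofactor myocardin, were not well above background in any channel of either array. The part of feeder fibroblasts, of conditioned medium or of differentiating cells in the ratios of the members was not tested.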

How the data were processed

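The 2 arrays were Agilent mouse gene expression arrays with 62976 spots each, 59305 of them outside the control spots. As deposited, the scanner output of Feature Extraction (version 11.5.1.1 per the file headers, whereas the methods name another) holds spot and local background intensity, processed intensity, flags for outliers and background, and a log10 ratio of the dyes (Cy5 over Cy3). The authors also deposited a table of log2 ratios after GeneSpring, used as an alternative, and 0 of its columns of per-sample values were left out. The p-values in the scanner output were not used.

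Median signals were background-corrected with normexp of limma (offset 50) and normalized by loess within each array, with control spots dropped. Outlier spots (215 and 227) were removed and spots of a probe averaged. A probe was tested if 1 or both of its channels were well above background on each array, which kept 33012 of 55681 probes and dropped 22669. No spot was saturated. Accessions were named through a RefSeq gene table, which matched 31014 spots, and 14975 of 24022 tested genes had a RefSeq symbol. The brightest probe stood for a gene.

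The mean ratio was tested against 0 with lmFit and eBayes (1 residual and 5.29 prior degrees of freedom). The control was 1 pool, so the test leaves out the spread of the controls, and the number of arrays limits precision. The choice of probe, the fit and the call were tested on simulated log2 ratios of probes. Background correction, dye normalization and averaging of spots were not part of that test. All members are named, and of each other list up to 4 genes past the call with the largest ratios, and genes named after their values were seen are said to be so. The members and lists were chosen with earlier results of these data known. The values of 1 further list are not reported here. The alternatives changed the background correction (none), the signal (processed), the dye normalization (median centring), the filter (none or stricter), the probe rule (mean), the test (the methods' t-test), the fold (2) and the replicates (each left out), or took the authors' log2 ratios. Promoter windows came from RefSeq (GRCm38.p6). Software was limma 3.58.1 in R 4.3.3.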

Additional observations from a re-analysis of the deposited data

How the results depend on the processing

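The members raised numbered 31 with median centring, 6 at 2-fold and 0 with the methods' t-test after Benjamini-Hochberg adjustment (20 before it), and 20 to 21 when either replicate was left out, by fold alone since 1 array gives no p (likewise for all genes). All genes raised numbered 2827 with median centring, 2130 with the authors' deposited table, 281 at 2-fold, 865 with the methods' t-test and 0 after its adjustment, and 1323 to 1398 with either replicate left out. All genes lowered numbered 771 with the processed signals, 64 with median centring, 617 with the authors' table, 17 at 2-fold and 0 with the adjusted t-test, and 199 to 253 with either replicate left out. The members' median was 0.60 with the processed signals, 0.86 with median centring, 0.64 with the authors' table and 0.57 with the mean of probes, and median centring over the tested genes, chosen after seeing the data, gave 0.67 and 25 raised members. The cause of these shifts was not tested. Signs turned for the median of all genes (-0.029 with the processed signals and -0.0032 with centring over the tested genes), for the membrane linkers' median and *Ezr* (both -0.0061 with the processed signals), for *Actn4* (0.28 with median centring and 0.10 with centring over the tested genes), for *Rdx* (0.22 and 0.038, and from -0.12 to 0.064 with a replicate left out), and for *Srf* (-0.045 with the processed signals and -0.0052 with the authors' table). The other settings left the direction of every member as given. With 2 arrays on 1 slide, against 1 control pool and without a dye swap, the fit has 1 residual degree of freedom, and the signs of ratios near 0 (*Actn4*, *Ezr*, *Rdx* and *Srf*) are not fixed by these data.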

Other observations

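Of 13 tubulins 2 were raised, with a median of 0.048. *Tubb6*, a β-tubulin of many differentiated cells, had 0.88 and 0.91 (mean 0.89 ± 0.022, limma adjusted p = 4.88e-05), and *Tuba8* had 0.70 and 0.52 (mean 0.61 ± 0.12, limma adjusted p = 0.00032), under 1.5-fold on replicate 2 alone. With median centring 6 tubulins were raised.

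Of 7 genes in a list of the nuclear lamina and envelope with vimentin and nestin, 1 was raised and the median was -0.12. This was *Vim*, encoding vimentin of mesenchymal cells, with 1.39 and 1.44 (mean 1.42 ± 0.035, limma adjusted p = 3.28e-05). Beside *Lmna* (0.96 and 1.04), the B-type lamins, chosen after their values were seen, had mean ratios of -0.31 for *Lmnb1* and -0.33 for *Lmnb2*. These lists were chosen with earlier results of these data known, and their differences from the actin genes were not tested.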
